A study of Mus musculus with 899 samples.

Results

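The microRNAs mmu-miR-7a-5p and mmu-miR-7b-5p, the mature 5′ strands of the mouse miR-7 family, were measured by small RNA sequencing of plasma. They are 2 of the 1915 mature microRNAs in the deposited count table and were taken by name. The pair was selected on a value of these data: miR-7b-5p had the largest fall of the microRNAs past the threshold in irradiated C3H mice on day 5, so that contrast is described here without a test. Both passed the filter on low counts, which left 483 microRNAs with 99.99% of the reads.

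By the mouse numbers in the sample titles, the libraries came from 196 gnotobiotic mice of both sexes from the strains C3Hf/Sed/Kam (C3H) and C57Bl/6 (C57), which were given a single whole thorax lung irradiation (WTLI, X-rays to the chest with the rest of the body shielded) or a sham irradiation. By the study's methods, males were 8 to 10 weeks old and females 10 to 12 weeks old at the start. By the title numbers, C3H mice were 64 irradiated and 32 sham irradiated animals, and C57 mice were 68 irradiated and 32 sham irradiated animals. The study itself reports 64 irradiated C57 mice. Plasma libraries came from before irradiation (PT), from day 2 (D2) or day 5 (D5), and then monthly to month 4 (M4) in C3H and month 6 (M6) in C57, with only 2 of the 4 sets of mice named in the titles (G1 and G2) followed past month 1. No genetic alteration is given for any group. The number of libraries per group fell with time, to 17 irradiated C3H mice at M4 and 8 irradiated C57 mice at M6, so the late irradiated groups hold only mice that were still sampled, and 4 irradiated C57 mouse numbers, all of set G1 and sampled from M1 on, had no PT library. The labels do not say whether these 4 are further animals. C57 mice were all in sets G1 and G3 and C3H mice all in sets G2 and G4. In each comparison between strains, strain can therefore not be told apart from set.

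A microRNA is a short RNA cut from a hairpin precursor. It guides the Argonaute protein to messenger RNAs that pair with its seed, the bases near its 5′ end. miR-7 is best known from neuroendocrine and neural tissue: it is abundant in pancreatic islets, the pituitary and the hypothalamus, restrains insulin secretion and beta cell growth, and is bound in the brain by the circular RNA Cdr1as. In plasma a microRNA can come from many tissues and from blood cells, so a lower level can mean fewer contributing cells or less RNA from each, and these cannot be told apart in bulk plasma.

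The sequences show why both are read as 1 family. They come from RefSeq (GRCm38.p6, the assembly that the labels call mm10), are written 5′ to 3′, and have the seed (bases 2 to 8) in capitals.
mmu-miR-7a-5p: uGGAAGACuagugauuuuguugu
mmu-miR-7b-5p: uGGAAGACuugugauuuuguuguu
The first 9 bases are shared. Counted from 1 at the 5′ end of miR-7a-5p, the only substitution was A10U, and miR-7b-5p has 1 more base at its 3′ end (24 bases against 23). Of the 1679 mature names in the RefSeq table, these 2 were the only ones with this seed.

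The opposite strands of the same hairpins, which tell the precursors apart better than the 5′ strands do, were also counted.
mmu-miR-7a-1-3p: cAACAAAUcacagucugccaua
mmu-miR-7a-2-3p: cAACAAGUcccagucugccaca
mmu-miR-7b-3p: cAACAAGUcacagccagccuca
Each is 22 bases long, with 3 positions different between the 3′ strands of the 2 miR-7a hairpins, and 5 and 4 positions different between miR-7b-3p and these.

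miR-7a-5p is encoded at 2 places in GRCm38.p6. Mir7-1 has it on the minus strand at chr13:58392841-58392863, in an intron of Hnrnpk on the same strand, and Hnrnpk encodes an RNA-binding protein expressed in most cells. Mir7-2 has it on the plus strand at chr7:78888295-78888317, where no other gene is annotated. miR-7b-5p is encoded by Mir7b alone, on the plus strand at chr17:56243017-56243040, also with no other gene annotated there. Reads of miR-7a-5p therefore do not show which of its genes they came from, and 1 base separates it from miR-7b-5p, so the split between the members depends on the mismatches that the authors' alignment allowed, a setting not given in the sources used here.

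Nearly all miR-7 in plasma was miR-7a-5p. It was read in every library, with 6 to 36348 reads (median 252), and its level ran from 22.9 to 14778 CPM (reads per 1000000 reads after TMM scaling, a correction for library composition) with a median of 176 CPM, rank 111 of the 483 tested microRNAs by mean log2 CPM. miR-7b-5p had a median of 3 reads, was at 0 in 283 libraries (31.5%), and had a median of 1.76 CPM and a highest value of 42.7 CPM, rank 333 by the same mean. The difference in depth of reading sets how firmly each can be judged: libraries held 206490 to 11814515 reads (median 1475030), and 3 reads, the limit that a count of 0 allows, were worth 0.214 to 17.4 CPM with a median of 2.04 CPM, above the median level of miR-7b-5p itself. These limits cover counting error only.

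Over all libraries pooled, miR-7b-5p made up 1.29% of the reads of both members, or 1.44% without the 1 library described next. By group the share ran from 0.268% in irradiated C57 mice at M1 to 2.18% in irradiated C57 mice on D2. Without the 1 library irradiated C57 mice at M1 were at 0.799%, and the lowest share was that of sham C57 mice at M4 at 0.475%. These are pooled reads, and the median share over the libraries of the D2 group was 0. Of the opposite strands, miR-7a-1-3p had a median of 25 reads and was at 0 in 13 libraries (1.45%), miR-7a-2-3p was at 0 in 473 libraries (52.6%), and miR-7b-3p had 21 reads in all and was at 0 in 894 libraries (99.4%), too few to test.

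**Figure D1:**
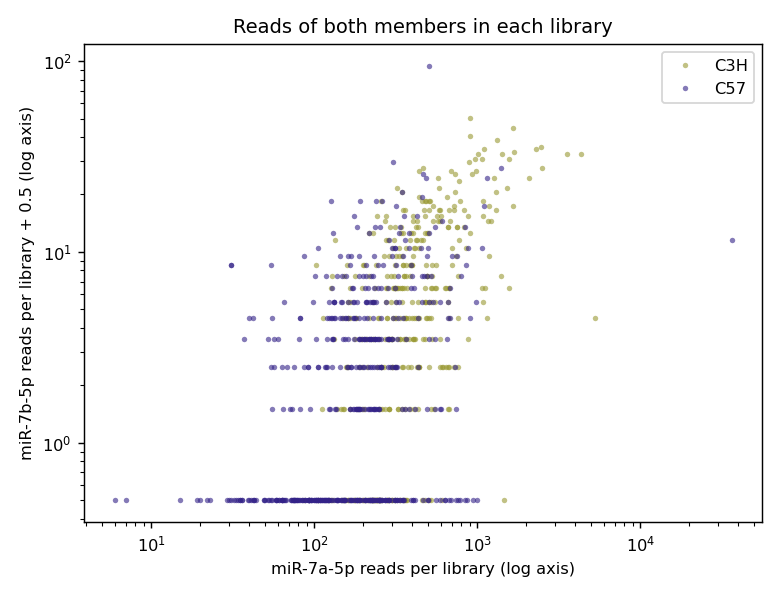
Reads of miR-7b-5p (vertical axis, with 0.5 added, log axis) against reads of miR-7a-5p (horizontal axis, log axis), 1 point per library, coloured by strain. The median library held 252 miR-7a-5p reads and 3 miR-7b-5p reads, the lowest row holds the 283 libraries without a miR-7b-5p read, and 1 C57 library stands alone at 36348 miR-7a-5p reads.

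One library stood apart, and each result that rests on it is given with and without it. It came from an irradiated C57 female at M1 (set G3) and held 36348 miR-7a-5p reads among 2091473, 1.74% of the library and 14778 CPM. The next highest library of its group was at 353 CPM and the highest of all the other libraries at 630 CPM. The same mouse had 68 miR-7a-5p reads (105 CPM) at PT and 232 reads (159 CPM) on D5.

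The other strands of the family were within the range of their group in that library, which was singled out for its high miR-7a-5p, so its low share of miR-7b-5p follows from that choice and is a description. miR-7b-5p had 11 reads there, 0.0303% of both members (95% Wilson interval 0.0169 to 0.0542), against 0.799% (0.673 to 0.947) in the other 67 libraries of its group pooled, intervals that cover counting error only and not the spread between mice. miR-7a-1-3p had 16 reads there (6.51 CPM against a median of 14.4 CPM). miR-9-5p, a microRNA of brain and neural progenitors, was the only member of the marker lists that was also above all the others of the group, at 460 reads and 187 CPM, where the other libraries of the group had a median of 1.56 CPM and a highest value of 18.1 CPM. The neuroendocrine list (miR-375-3p, miR-184-3p, miR-132-3p and others) had 0 of 9 members above the other libraries, and the brain list had 1 of 11. A cause was not tested.

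Across groups, miR-7a-5p was higher in C3H than in C57 plasma, a difference of strain or of set. Group medians ran from 171 to 307 CPM in C3H and from 76.2 to 235 CPM in C57, and 14 of the 14 C3H groups were among the 16 highest of the 32 groups. The highest median was that of sham C3H mice at M4 (307 CPM) and the lowest that of irradiated C57 mice on D2 (76.2 CPM). The ranges of all 31 neighbouring pairs in this order overlapped. Neighbours sorted by median lie close together, so this overlap is a description and no test of whether they differ.

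**Figure D2:**
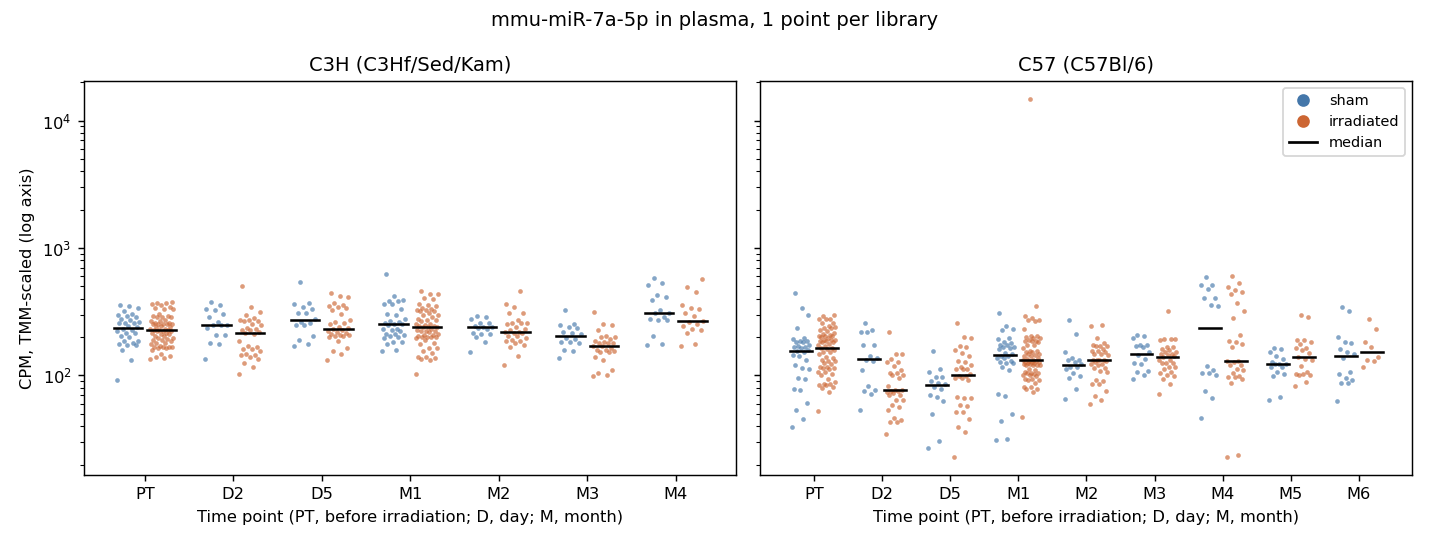
miR-7a-5p level in plasma (CPM, TMM-scaled, log axis) by time point for C3H and C57 mice, 1 point per library, blue for sham and orange for irradiated, with black lines at the medians. C3H medians lie between 171 and 307 CPM, the lowest C57 median is that of irradiated mice on D2 at 76.2 CPM, and the library at 14778 CPM stands alone at M1.

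The levels of miR-7b-5p followed a similar order by strain at far lower values. Medians ran from 0.564 to 5.64 CPM in C3H and from 0 to 2.00 CPM in C57, with 13 of 14 C3H groups among the 16 highest. Sham C3H mice at M4 again had the highest median (5.64 CPM), while sham C57 mice at M4, among the highest groups for miR-7a-5p, had a median of 0 for miR-7b-5p. The ranges of all neighbouring groups overlapped here too, again as a description only.

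**Figure D3:**
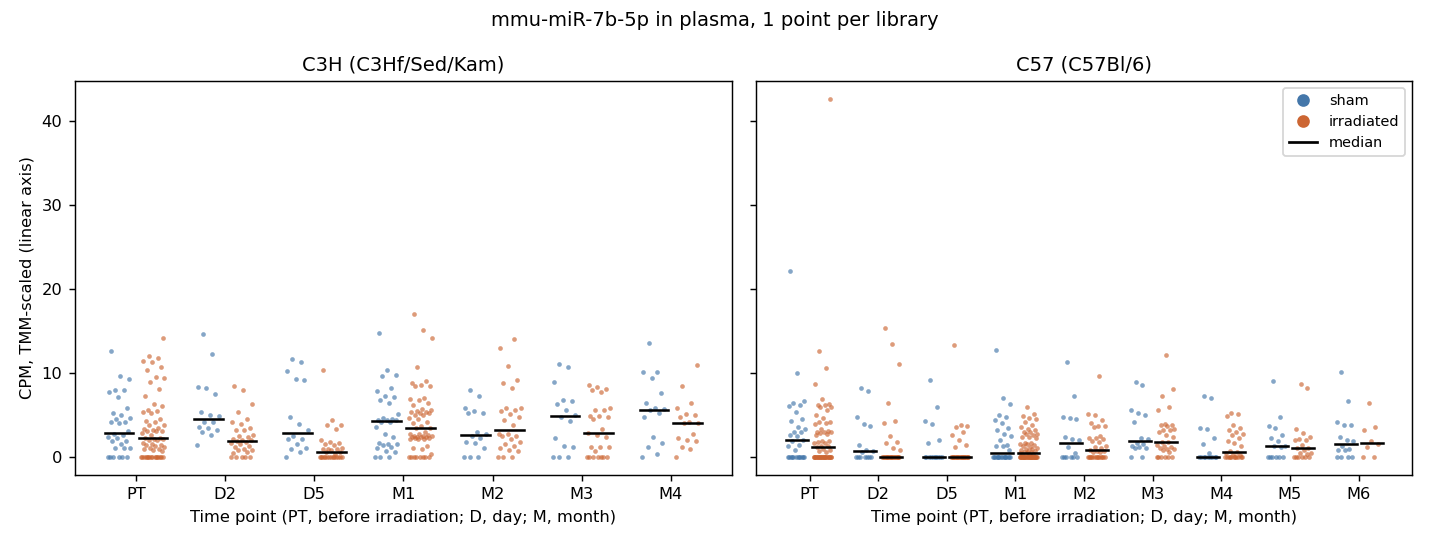
miR-7b-5p level in plasma (CPM, TMM-scaled, linear axis) by time point for C3H and C57 mice, 1 point per library, blue for sham and orange for irradiated, with black lines at the medians. Many libraries lie at 0, irradiated C3H mice on D5 have a median of 0.564 CPM against 2.79 CPM in sham mice, and 1 C57 library at PT reaches 42.7 CPM.

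In C57 mice, miR-7a-5p was lower 2 days after WTLI. Irradiated mice had a lowest value of 35.0, a median of 76.2 and a highest value of 218 CPM (n = 32), and sham mice had 53.7, 135 and 257 CPM (n = 16). The ranges overlapped, with the irradiated median near the low end of the sham range. In mean log2 CPM this was 6.36 ± 0.60 (SD, n = 32) against 7.02 ± 0.68 (SD, n = 16). On D5 irradiated C57 mice had 22.9, 101 and 259 CPM (n = 32) and sham mice 26.8, 84.0 and 157 CPM (n = 16). The sham median on D5 was thus near the irradiated median on D2. The D5 contrast was not called, and its log2 fold change lay between 0.05 and 0.56 under 18 alternatives.

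The edgeR log2 fold change at this time was -0.70 (SE 0.23, adjusted p = 0.0465), and -0.70 (SE 0.17, adjusted p = 0.00241) without the library that stood apart, since all groups share 1 estimate of the spread. Of all 483 microRNAs, 6.63% were called (adjusted p under 0.05) in this contrast in either fit. The size was near -0.70 in each set and sex taken alone, with -0.70 in set G1, -0.69 in set G3, -0.69 in males and -0.71 in females, and none of the 4 passed the threshold by itself. The call was also lost, at -0.77 (adjusted p = 0.0652), as a change from each mouse's own PT library in a limma-voom fit with the mouse as a replicate block, and under 7 other settings given in the closing section.

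The opposite strand miR-7a-1-3p did not pass the threshold in that contrast, at -0.37 (adjusted p = 0.397 by edgeR), and miR-7b-5p was at 0.05 (SE 0.63, 95% interval -1.18 to 1.29), a range that includes the change of miR-7a-5p. The 2 tested hairpin partners had a median of 0.41 and neither was called, so miR-7a-2-3p went the other way. It was at 0 in 23 of 32 irradiated and 12 of 16 sham libraries. Other lists moved there too: leukocyte microRNAs fell in 2 of 6 (miR-150-5p, -1.55, and miR-155-5p, -1.15), with summed levels of 6436 to 16860 CPM in irradiated and 13452 to 23329 CPM in sham mice. The islet and neuroendocrine microRNA miR-375-3p, which shares its islet setting with miR-7, rose by 2.37 (adjusted p = 6.62e-30), 1 of the 8 tested members of its list. The hepatocyte microRNA miR-122-5p was at -1.69, and 0 of 6 red blood cell microRNAs were called. The part of these in the result was not tested.

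At M1 the C57 contrast for miR-7a-5p rested on the library that stood apart. Irradiated mice had 46.9, 131 and 14778 CPM as lowest, median and highest values (n = 68) and sham mice 31.2, 145 and 310 CPM (n = 32), so the medians were close and the groups overlapped over nearly their whole range. With all libraries the edgeR log2 fold change was 1.32 (SE 0.18, adjusted p = 3.76e-11), and without that 1 library it was 0.01 (SE 0.12, 95% interval -0.23 to 0.25, adjusted p = 0.987). Of all microRNAs, 3.73% were called with all libraries and 3.31% without this one. The fit with the mouse as a replicate block, which uses log values, gave 0.19.

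In C3H mice, irradiated medians of miR-7b-5p lay below sham medians on D2 and D5, a difference that did not pass the test on D2 and has no test on D5. The median was also lower in the irradiated arm at PT, before irradiation (2.24 against 2.89 CPM), and at M1 (3.45 against 4.29 CPM). The same held at M3 (2.90 against 4.88 CPM) and M4 (4.09 against 5.64 CPM), while at M2 miR-7b-5p was higher in the irradiated arm (3.25 against 2.59 CPM). On D5, the contrast on which it was selected, sham mice had 0, 2.79 and 11.7 CPM as lowest, median and highest values, with 1 of 16 at 0, and irradiated mice had 0, 0.564 and 10.4 CPM, with 14 of 32 at 0. The ranges overlapped, with more irradiated libraries at 0 and a second highest value of 4.38 CPM against 11.3 CPM in sham mice. The log2 fold change was -1.77 (SE 0.55), beside -0.14 (SE 0.23) for miR-7a-5p in the same libraries. These values chose the pair and carry no test, and the 3.11% of microRNAs called on D5 is given for completeness.

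Under 15 other settings the D5 value of miR-7b-5p lay between -1.92 and -1.14, with -1.92 in set G2, -1.68 in set G4, -1.42 in males, -1.90 in females and -1.63 as a change from each mouse's own PT library. Next to it among the microRNAs past the threshold was miR-150-5p, abundant in lymphocytes, at -1.29, and outside the threshold miR-194-1-3p had a larger fitted fall of -2.12.

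On D2, in mice sampled at that time and not on D5, sham C3H mice had 1.44, 4.52 and 14.6 CPM of miR-7b-5p, with 0 of 16 at 0, and irradiated mice had 0, 1.92 and 8.43 CPM, with 5 of 32 at 0. The groups overlapped, with the irradiated median in the low part of the sham range. The log2 fold change was -1.22 (SE 0.52, adjusted p = 0.168 by edgeR), which did not pass the threshold, and it passed at -1.42 (adjusted p = 0.0253) with the mouse as a replicate block and under 2 other limma settings. In this contrast 4.97% of microRNAs were called, and miR-7a-5p was at -0.25 (SE 0.23). Leukocyte microRNAs fell in 5 of 6 there (summed levels of 7439 to 17536 CPM against 8321 to 40712 CPM), miR-122-5p was at -1.06, and their part in the value was not tested.

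Over the 13 tested contrasts of irradiated against sham mice, miR-7a-5p was called in 2 (C57 D2 lower, C57 M1 higher with the 1 library) and miR-7b-5p in 0, with 1 of its contrasts at an unadjusted p under 0.05. The uncalled values of miR-7a-5p lay between -0.31 and 0.37, with a smallest adjusted p of 0.354 by edgeR, and those of miR-7b-5p between -1.22 and 0.44. For reference, the share of all microRNAs called was 3.31%, 0.621%, 2.07% and 0.414% in C3H from M1 to M4, and 14.1%, 3.31%, 1.66%, 4.76%, 3.52% and 0.414% in C57 on D5 and from M2 to M6. Before irradiation the assigned arms were at -0.02 (SE 0.17) in C3H and 0.07 (SE 0.17) in C57 for miR-7a-5p.

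**Figure D4:**
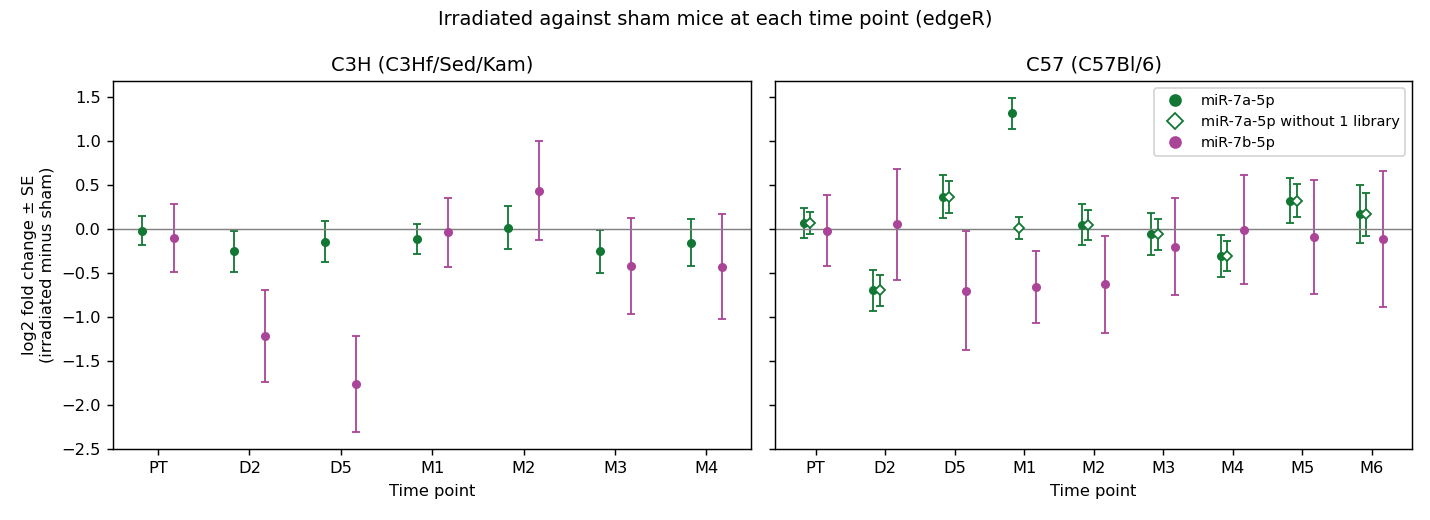
Fitted log2 fold change of irradiated against sham mice (vertical axis, bars are standard errors) at each time point for miR-7a-5p (green), miR-7a-5p without 1 library (open green, C57 only) and miR-7b-5p (purple). miR-7a-5p lies near 0 except at C57 D2 (-0.70) and C57 M1 (1.32, or 0.01 without the library), and miR-7b-5p is lowest in C3H on D5 (-1.77, no test) and D2 (-1.22).

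Whether the strains differed in the response of miR-7a-5p was tested over D2 and M1 to M4, leaving out D5. The edgeR F test gave an adjusted p of 4.82e-05 with all libraries, carried by a difference of 1.44 (SE 0.24, adjusted p = 5.91e-07) at M1, and 0.924 without the 1 library, where the M1 difference was 0.13 (SE 0.17). Among all microRNAs 2.69% were called by this test, or 2.07% without the library. miR-7b-5p had an adjusted p of 0.871. The 2 contrasts that led the descriptions above were thus not shown to differ between strains: at D2 the C57 change minus the C3H change was -0.45 (SE 0.34, adjusted p = 0.771) for miR-7a-5p and 1.27 (SE 0.83, adjusted p = 0.743) for miR-7b-5p by edgeR.

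The ratio of the members within a library does not change with scaling, but where miR-7b-5p has few reads it varies with their number through the added constant. As log2 of miR-7a-5p over miR-7b-5p reads, with 0.5 added to each, it was 6.77 ± 1.16 (SD, n = 32) in irradiated and 5.61 ± 0.80 (SD, n = 16) in sham C3H mice on D2, a difference of 1.16 (two-sided permutation test with 100000 resamples, p = 0.0007, adjusted p = 0.0098 over 14 comparisons). On D5 it was 7.93 ± 1.25 against 6.41 ± 1.34 (SD, same group sizes), a difference of 1.52 that has no test because it holds the selected value. None of the other 13 comparisons passed, C57 D2 (-0.79, adjusted p = 0.768) and D5 (0.83, adjusted p = 0.729) included, by the same permutation test. The D2 difference lost its call as a change from the PT library of the same mouse, a replicate block (0.72, permutation adjusted p = 0.579). In set G2 alone the call was lost too (0.83, permutation p = 0.0802, adjusted p = 0.900). In set G4 alone the difference was 1.48 (permutation adjusted p = 0.0142 over 6 comparisons). With 1 added in place of 0.5 it was 0.92 (permutation adjusted p = 0.0230). Irradiated C3H libraries on D2 were also read less deeply, with a median of 314.5 miR-7a-5p reads against 543.5 in sham, and the part of depth in the ratio was not tested.

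Before irradiation, miR-7a-5p was lower in C57 than in C3H mice. No set held both strains, so this difference cannot be told apart from one between sets. Mice assigned to irradiation had 134, 225 and 377 CPM (lowest, median, highest, n = 64) in C3H and 52.4, 164 and 299 CPM (n = 64) in C57, and mice assigned to sham had 92.3, 237 and 356 CPM (n = 32) and 39.6, 157 and 447 CPM (n = 32). The ranges overlapped in both arms, with each C57 median below the C3H one. The edgeR log2 difference was -0.54 (SE 0.12, adjusted p = 2.90e-05), with -0.58 (SE 0.19, adjusted p = 0.0112) in the sham arm and -0.50 (SE 0.14, adjusted p = 0.00127) in the irradiation arm. The call was lost in 3 of 10 alternatives in the sham arm, where values ran from -0.68 to -0.28 with a largest adjusted p of 0.439, and in 1 of 10 in the irradiation arm, with a largest adjusted p of 0.103 (edgeR or limma).

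That difference stood among many: 50.7% of microRNAs were called between the strains at PT, 106 higher and 139 lower in C57. miR-7b-5p was at -0.29 (SE 0.28, adjusted p = 0.392 by edgeR), with -0.56 (adjusted p = 0.0499) under the replicate block, and the ratio of the members differed by -0.08 (permutation adjusted p = 0.900). The hairpin partner miR-7a-1-3p was at 0.06 (adjusted p = 0.714), while miR-7a-2-3p was lower in C57 at -1.38 (adjusted p = 2.51e-04).

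Red blood cell microRNAs were lower in C57 in 6 of 6 in the same contrast, with a median of -0.50 (from -0.20 for miR-16-5p to -1.47 for miR-144-3p) against -0.02 over all microRNAs. Their summed level ran from 281874 to 2136790 CPM in C3H and from 296019 to 1566830 CPM in C57 (sums can pass 1000000 CPM because TMM rescales the totals). Acinar pancreas microRNAs were lower in C57 in 4 of 4, with a median of -1.31 and summed levels of 4876 to 111637 CPM in C3H and 5604 to 113202 CPM in C57. Leukocyte microRNAs were lower in 3 of 6 (13368 to 37876 CPM and 12641 to 47933 CPM) and hepatocyte microRNAs in 1 of 2. The part of these lists in the strain difference of miR-7a-5p was not tested. With only libraries of at least 1000000 reads the difference was -0.31 (adjusted p = 0.0760 by edgeR). The neuroendocrine list was mixed, with 3 of 8 higher and 2 of 8 lower in C57.

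Sham mice were sampled at the same times as irradiated mice and show how the members moved without WTLI. In each strain PT held 32 sham libraries from 2 sets, and M2 and later times held 16 from 1 of these sets. Set therefore changed with time, and the main fit did not pair mice. In sham C57 mice miR-7a-5p changed over the study (edgeR F test against PT, adjusted p = 2.78e-06), in a contrast in which 62.9% of microRNAs were called. It was lower on D5, with 26.8, 84.0 and 157 CPM (n = 16) against 39.6, 157 and 447 CPM at PT, a log2 difference of -0.94 (SE 0.25, adjusted p = 0.00129), where 30.4% of microRNAs were called. At M4 it was higher, with 46.6, 235 and 587 CPM (n = 16) and a difference of 0.77 (SE 0.23, adjusted p = 0.00475), where 29.6% were called. The M4 values fell into high and low libraries, divided by sex as described next, and with the mouse as a replicate block the M4 difference was 0.43 (adjusted p = 0.0629 by limma-voom). The M4 call was lost in 5 of 10 alternatives.

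In sham C3H mice the same F test gave an adjusted p of 0.238 for miR-7a-5p (46% of microRNAs called), or 0.0197 without the 1 C57 library (46.2% called) and 0.0409 with the replicate block. The M4 difference from PT was 0.52 (SE 0.23, adjusted p = 0.0591), or 0.52 (SE 0.17, adjusted p = 0.00792) without that library, and it was called in 7 of 10 alternatives. miR-7b-5p did not pass in either strain (adjusted p = 0.907 in C3H and 0.725 in C57 by edgeR).

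In C57 mice at M4, miR-7a-5p separated females from males. Females were older at the start (10 to 12 weeks against 8 to 10 weeks). In this and every other comparison by sex, sex can therefore not be told apart from age. Sham females had 350, 441 and 587 CPM (lowest, median, highest, n = 8) and sham males 46.6, 102 and 119 CPM (n = 8). The groups did not overlap, with 8 of 8 females above every male. Irradiated females had 98.5, 345 and 601 CPM (n = 14) and irradiated males 23.1, 111 and 168 CPM (n = 15), with 13 of 14 females above every male.

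The log2 difference, male minus female, was -2.02 (SE 0.22, adjusted p = 2.31e-16 by edgeR) over both arms, -2.31 (SE 0.36, adjusted p = 7.15e-08) in sham and -1.74 (SE 0.26, adjusted p = 1.54e-08) in irradiated mice, and the difference between these was 0.57 (SE 0.42, adjusted p = 0.885). Of all microRNAs 2.28% were called, 11 in all, with miR-7a-5p at the smallest adjusted p. Some of these calls, that of miR-125a-3p among them (SE 17499900), had no usable standard error. Under the 6 alternatives run for this contrast the value stayed between -2.05 and -1.98 and was called each time. The contrasts by sex after PT were chosen after the data had been seen.

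**Figure D5:**
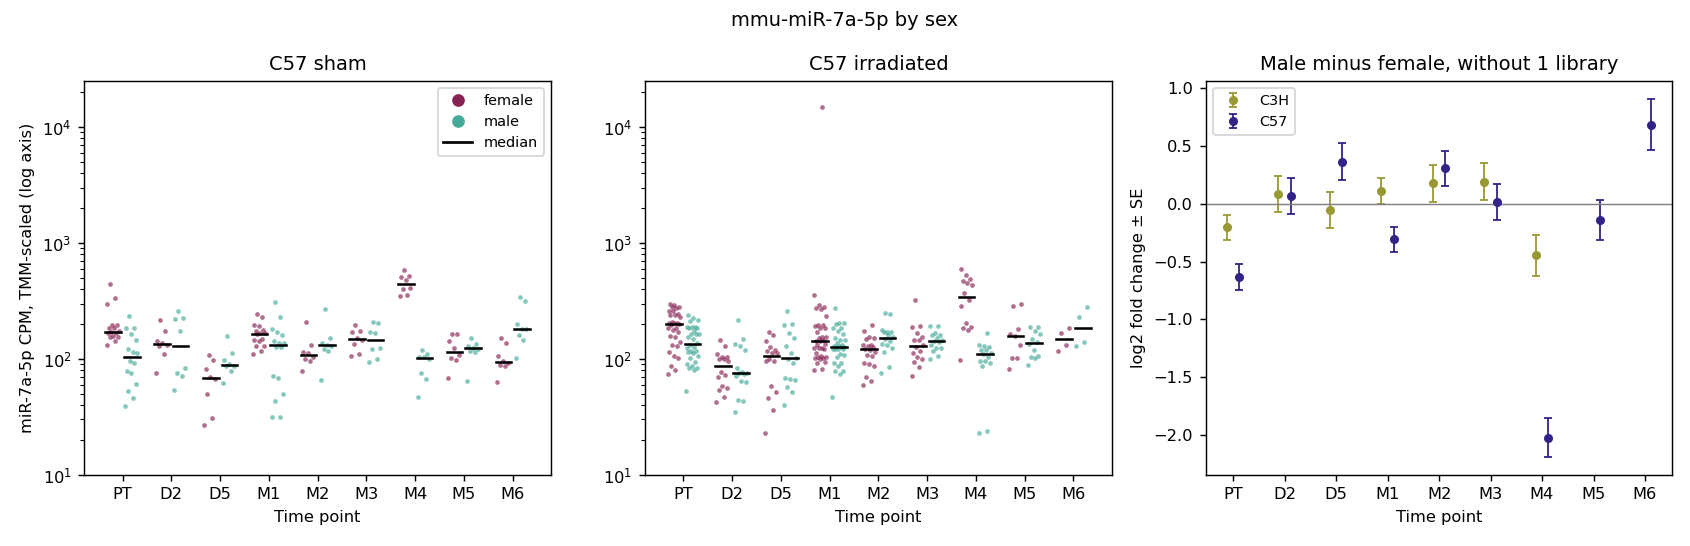
miR-7a-5p level (CPM, TMM-scaled, log axis) by time point in sham (left) and irradiated (middle) C57 mice, 1 point per library, coloured by sex, with lines at the medians, and (right) the fitted male minus female log2 difference with standard errors in C3H and C57 without 1 library. At M4 all 8 sham females lie above every sham male, and the C57 difference there is -2.02 while that of C3H is -0.45.

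The M4 difference was tested against that at other times and in the other strain. M4 was chosen after the data had been seen and had the largest C57 sex difference of miR-7a-5p. The p-values of these tests do not allow for that choice. It exceeded the mean difference of the other C57 time points by -1.95 (SE 0.23, adjusted p = 6.95e-14 by edgeR), a test that called 0.414% of microRNAs, miR-7a-5p and miR-125a-3p. The fit of miR-125a-3p had an SE of 19133200, so its call gives no usable size. The C57 difference at M4 exceeded the C3H difference at M4, itself -0.45 (SE 0.24, adjusted p = 0.266), by -1.58 (SE 0.32, adjusted p = 4.61e-04), a test that called 5.59%.

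From PT to M4, sham females rose in the group test and sham males did not pass it. Paired within mice, most females rose and every male fell, with no test. The group test did not pair mice: PT held 16 sham libraries per sex from sets G1 and G3, and M4 held 8 from set G1. Against PT, sham C57 females at M4 were higher by 1.14 (SE 0.28, adjusted p = 0.00121 by edgeR, 15.5% of microRNAs called), and sham males were at -0.32 (SE 0.30, adjusted p = 0.466, 23.2% called). The female call was lost in 1 of 5 alternatives, with only libraries of at least 1000000 reads (0.87, adjusted p = 0.0650 by edgeR). In the same mice, log2 CPM was higher at M4 than at PT in 8 of 8 sham females (mean change 1.02 ± 0.51, SD) and 9 of 10 irradiated females (1.30 ± 1.05, SD). It was higher in 0 of 8 sham males (-0.68 ± 0.41, SD) and 0 of 15 irradiated males (-0.93 ± 0.91, SD).

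The other strands of the family did not pass the test. miR-7b-5p at M4 was at -0.16 (SE 0.61, adjusted p = 0.949 by edgeR), with an interval of -1.35 to 1.03 that excludes the value of miR-7a-5p, and miR-7a-1-3p was at -0.26 (adjusted p = 0.694). Of the marker lists, 0 of 8 neuroendocrine, 0 of 6 red blood cell, 0 of 4 acinar and 1 of 6 leukocyte microRNAs were called (miR-150-5p, -0.52). Total reads overlapped, at 674839 to 2754220 in sham females and 962814 to 2479504 in sham males.

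miR-9-5p, the microRNA that was also high in the library that stood apart, was the only one of 8 tested brain microRNAs called at M4, at -2.49 (adjusted p = 0.0228 by edgeR). It had 2.44, 5.96 and 18.7 CPM in sham females and 0, 0.340 and 2.68 CPM in sham males, 4 of them at 0. In irradiated mice it was lower and overlapped more, with a median of 1.38 CPM in females and 0 in males. These are counts of a few reads per library, and the summed brain list overlapped between sexes (1204 to 2855 CPM in sham females and 1652 to 2999 CPM in sham males).

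Smaller sex differences were present at other times in C57. At PT, miR-7a-5p was lower in males by -0.63 (SE 0.15, adjusted p = 4.05e-04 by edgeR) with medians of 134 against 198 CPM in the irradiation arm and 104 against 172 CPM in the sham arm, where 14.7% of microRNAs were called. miR-7b-5p was lower by -1.42 (SE 0.42, adjusted p = 0.00567), with -2.20 (adjusted p = 2.12e-04) in the irradiation arm and -0.65 (adjusted p = 0.667) in the sham arm. In the irradiation arm it was at 0 in 19 of 32 males and 8 of 32 females, and in the sham arm in 6 of 16 of each sex. The call of miR-7b-5p was lost at -0.71 (adjusted p = 0.160) with the mouse as a replicate block.

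On D2 in C57, miR-7b-5p was lower in males by -1.99 (SE 0.66, adjusted p = 0.0250 by edgeR, 11% of microRNAs called), at 0 in 11 of 16 irradiated and 6 of 8 sham males against 10 of 16 and 1 of 8 females, and at -1.21 (adjusted p = 0.140) with the replicate block. This call was kept in only 2 of 5 alternatives, with a largest adjusted p of 0.329 (edgeR or limma). At M1, miR-7a-5p was lower in C57 males by -1.23 (adjusted p = 1.56e-13, 14.9% called), or by -0.31 (SE 0.11, adjusted p = 0.0371, 14.7% called) without the 1 library, which was from a female. At M6 it was at 0.69 (SE 0.30, adjusted p = 0.123, 9.73% called), or 0.69 (SE 0.22, adjusted p = 0.0257, 9.94% called) without that library and 0.63 (adjusted p = 0.0432) with the replicate block. The direction of the sex difference of miR-7a-5p in C57 was thus not the same at M4 and M6.

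In C3H neither member passed the test by sex at PT, where 14.5% of microRNAs were called: miR-7a-5p was at -0.20 (SE 0.15, adjusted p = 0.390 by edgeR) and miR-7b-5p at -0.04 (SE 0.38, adjusted p = 0.989). Whether the response to WTLI differed by sex was tested over the first sampling times. In C57 the edgeR F test for miR-7a-5p gave an adjusted p of 4.12e-05 (5.18% of microRNAs called), and 0.908 without the 1 library (4.97% called). In C3H it gave 1 for both members (0.207% called).

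The microRNAs whose levels varied most like those of miR-7a-5p between libraries of the same group were miR-30e-5p (Pearson r = 0.558), miR-93-5p (0.543), miR-25-3p (0.504), miR-186-5p (0.483) and miR-20a-5p (0.415), over all libraries, which share mice. miR-16-5p, 1 of the 6 listed red blood cell microRNAs, followed at rank 6 (0.412), or at rank 5 without the 1 library. The rest of that list ranked lower. For miR-7b-5p the most similar was miR-7a-5p itself at 0.224, then miR-542-3p (0.192), miR-215-3p (0.191), miR-202-5p (0.186) and miR-126a-5p (0.174), weak values that at counts this low are no finding. miR-7a-5p and its hairpin partner miR-7a-1-3p were at 0.0224, and miR-7a-5p and miR-9-5p at 0.120, or 0.0530 without the 1 library.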

How the data were processed

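Small RNA libraries from 25 µL of plasma per mouse were sequenced by the authors, who removed hemolysed plasma and runs with few microRNA reads, trimmed and aligned reads to mm10 microRNAs in BaseSpace, and deposited whole-number counts per mature microRNA and library. Use of the kit's molecular identifiers and the allowed mismatches are not given in the sources used here. From these counts, the 483 microRNAs that passed filterByExpr were scaled by TMM and fitted in R 4.3.3 with edgeR 4.0.16 (quasi-likelihood, 1 mean for each of 32 combinations of strain, treatment and time, 867 residual degrees of freedom). Adjusted p-values are Benjamini-Hochberg over the microRNAs tested in a contrast, called at 0.05, standard errors are the unshrunken log2 coefficient over the root of F, and sex was tested in the same model split by sex. Log2 CPM used a prior count of 2. Ratios were compared by permutation (scipy 1.17.1).

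Groups, sexes and time points came from the labels, and mouse numbers from the titles. Libraries of 1 mouse are not independent: over 253 microRNAs, deviations from group means correlated at a mean r of 0.0656 in 1962 pairs from the same mouse and -0.00086 in others (0.00688 for miR-7a-5p). The mouse was therefore a replicate block in limma-voom (limma 3.58.1), as a random effect or as a change from PT. The study used limma and voom after quantile normalization. Limma on quantile-normalized log2 values, without voom, was run as an alternative near that method, because the deposited unit is counts. Other alternatives were limma-voom, DESeq2 1.42.0, DESeq2 size factors, filters on low counts, a depth minimum, set and sex, and both members added together. Leaving out the library with the highest miR-7a-5p, and sex contrasts after PT, were added after seeing the data. The fits were tested on simulated data.

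The microRNAs named are the 2 members, their 3 hairpin partners, marker lists by their counts with examples, and the 5 microRNAs most correlated with each member; miR-9-5p, miR-194-1-3p, miR-150-5p on D5 and miR-125a-3p were named after their values were seen. Members and lists were chosen with earlier results of these data known.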

Additional observations from a re-analysis of the deposited data

Results flagged for a closer look

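The response of miR-7a-5p to WTLI differed between strains in an F test of the difference itself (edgeR adjusted p = 4.82e-05), and between sexes in C57 mice (edgeR adjusted p = 4.12e-05). Both tests use the M1 library with 36348 miR-7a-5p reads, and without it the adjusted p-values were 0.924 and 0.908.

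The male minus female log2 difference of miR-7a-5p in C57 mice at M4 was 1.95 more negative than the mean of the other time points (-1.95) and more negative than that in C3H at M4 by -1.58, both by edgeR tests of the difference itself. Without the 1 library the first was -2.07 and the second -1.58. In the same mice, 8 of 8 sham and 9 of 10 irradiated females were higher at M4 than at PT, and 0 of 8 sham and 0 of 15 irradiated males. These contrasts were chosen after the data had been seen, and the cause was not tested.

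In the 1 group of 4 to 10 libraries (8 irradiated C57 mice at M6), no library of either member stood apart from the others.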

How the results depend on the processing

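Over 69 results and 720 recomputed values, 665 kept their direction and side of the threshold, 43 lost a call, 11 gained one and 1 turned sign, and 58 uncalled values in 25 results changed sign. A stricter filter, 10 reads in at least 50% of libraries, removed miR-7b-5p and gave it no value. Adjusted p-values are in parentheses, and apart from fewer libraries in subsets, the causes were not tested.

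The C57 D2 fall of miR-7a-5p kept its direction and lost its call in set G1 (-0.70), set G3 (-0.69), males (-0.69) and females (-0.71), with DESeq2 size factors (-0.66, 0.0854), quantile normalization (-0.57, 0.0623), no filter (-0.68, 0.0694), the stricter filter (-0.64, 0.0562), libraries of at least 1000000 reads (-0.77, 0.236), both members in 1 row (-0.70, 0.0607), the change from PT as a replicate block (-0.77, 0.0652) and the DESeq2 Wald test (-0.65, 0.0730). The C57 M1 value turned sign in set G1 (-0.034) and lost its call in males (0.085), limma-voom (0.19), quantile normalization (0.24), the replicate block (0.19, or 0.12 as a change from PT) and without the 1 library (0.013).

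By limma, with voom, quantile normalization and the replicate block in this order, miR-7b-5p passed the threshold in C3H on D2 (-1.44, 0.0225; -1.16, 0.0229; -1.42, 0.0253) and between strains at PT (-0.57, 0.0478; -0.40, 0.0369; -0.56, 0.0499). The strain F test of miR-7a-5p lost its call with these (0.757, 0.915 and 0.737), with set and sex as covariates (0.277) and without the 1 library (0.924), and the sex F test in C57 with voom (0.901), the replicate block (0.902) and without the library (0.908). The C3H sham time course of miR-7a-5p gained a call with the replicate block (0.0409) and without the library (0.0197).

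With libraries of at least 1000000 reads, calls were lost for miR-7a-5p between strains (-0.31, 0.0760) and between C57 sexes at PT (-0.40, 0.259) and for miR-7b-5p between C57 sexes at PT (-1.01, 0.254), the last also with voom (-0.71, 0.162) and the replicate block (-0.71, 0.160). The D2 ratio in C3H fell to 0.72 (0.579) as a change from PT in a replicate block and to 0.83 (0.900) in sets G1 and G2, and was 1.48 (0.0142) in sets G3 and G4. The C57 M4 sex difference stayed called in all 6 alternatives run for it. Depth limits miR-7b-5p, whose median of 3 reads equals the limit a count of 0 allows.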
